A study of Mus musculus with 33 samples.

Results

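Transcripts of 39 genes that are known as products of hepatocytes, the parenchymal cells of the liver, were followed in bulk RNA-seq counts of sorted Kupffer cells (KCs), the resident macrophages (macs) of the liver, and of alveolar macrophages (AMs) of the lung. The genes were chosen by symbol, and all 39 were found among the 24421 gene symbols counted in each sample. KCs from Zeb2 fl/fl mice without Cre (CRE- KCs) made up 6 samples. KCs of Clec4f-crexZeb2 fl/fl mice, in which the Clec4f-driven Cre is meant to remove the transcription factor gene Zeb2 from KCs, were sorted into Tim4+ KCs and Tim4- KCs, with 6 samples each. AMs came as 5 samples from Zeb2 fl/fl mice (CRE- AMs) and 5 samples each of CD11b- AMs and CD11b+ AMs from Itgax-crexZeb2 fl/fl mice. Every group, the controls included, carried the floxed Zeb2 allele, and the mice were 6 to 8 weeks old. Per the study's methods the controls were littermates and both sexes were used, Clec4f-cre was also active in a minor share of B cells, and Itgax-cre in other CD11c-expressing cells. The question was whether these transcripts vary together from sample to sample, across KC replicates and between KC groups.

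Hepatocytes secrete most proteins of the blood plasma, among them albumin, the apolipoproteins, the clotting factors and the protease inhibitors. They also have a large part in the drug, amino acid and glucose metabolism of the body. Their mRNAs for these proteins belong to the most abundant in the liver, and they can be found in preparations of other liver cells, because the liver is taken apart with enzymes before sorting and RNA of broken cells can be carried along. KCs lie in the sinusoids next to endothelial cells and close to hepatocytes. A bulk sample cannot tell fewer cells of a type from less RNA per cell, and no sample of hepatocytes was part of the series. Whether the counts described here came from hepatocyte RNA or from the sorted macs was not tested.

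The 39 genes were ordered by the role of their products. Apolipoproteins (5 genes) carry lipid, carriers and other plasma proteins (9) include albumin (Alb) and transferrin (Trf), and 6 genes act in coagulation and fibrinolysis. Protease inhibitors made up 7 genes, cytochrome P450s 4, and enzymes of amino acid, urea and glucose metabolism 8. Alb lies on chromosome 5 of GRCm38 from 90460897 to 90476602 (plus strand, GENCODE M21). The Serpina1 genes, which encode alpha-1-antitrypsins, lie next to each other on the minus strand of chromosome 12. Serpina1a spans 103853589 to 103863562, Serpina1b 103728156 to 103830373 and Serpina1c 103894926 to 103904887. Their coding sequences of 1242 bases were 98.47% identical between Serpina1a and Serpina1c, 97.02% between Serpina1a and Serpina1b and 96.62% between Serpina1b and Serpina1c. They are shown because reads can fall on stretches that the copies share, so that counting can split or drop them. In the annotated transcripts, 32.57% of all stretches of 50 bases in Serpina1a occurred in no other gene, 64.21% in Serpina1b and 20.73% in Serpina1c. The stretch from coding base 1069 to 1158, which holds 13 of the 49 positions that differ among the copies (in capitals), reads as follows.
Serpina1a: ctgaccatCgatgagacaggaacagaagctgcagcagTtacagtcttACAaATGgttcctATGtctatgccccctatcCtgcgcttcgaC
Serpina1b: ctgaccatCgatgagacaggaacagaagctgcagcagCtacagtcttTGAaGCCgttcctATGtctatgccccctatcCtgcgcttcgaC
Serpina1c: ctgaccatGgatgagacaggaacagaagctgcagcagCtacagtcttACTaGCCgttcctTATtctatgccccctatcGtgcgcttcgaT

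Promoters are shown for Alb and Gc (vitamin D-binding protein), a pair of genes whose levels rose and fell together across KC samples. The letters GTTAAT, the core of the site bound by HNF1 factors of hepatocytes, were searched on both strands of the RefSeq promoters (GRCm38.p6), which run from 250 bases before to 50 bases after the start. They were found for 11 of the 31 genes with a promoter entry (Alb, Gc, Vtn, Fga, Fgb, F2, Serpina1a, Serpina1b, Serpina1c, Pck1 and G6pc), against 7.20% of all 27025 promoters. The letters TATAAA, on the strand of the gene, were found for 9 of 31 genes, against 8.88% of all promoters. A match is a description of these letters and not a shown binding site. The 250 bases before the start are given with the match in capitals, for Alb at chr5:90460620-90460869 on the plus strand and for Gc at chr5:89457899-89458148 on the minus strand.
Alb: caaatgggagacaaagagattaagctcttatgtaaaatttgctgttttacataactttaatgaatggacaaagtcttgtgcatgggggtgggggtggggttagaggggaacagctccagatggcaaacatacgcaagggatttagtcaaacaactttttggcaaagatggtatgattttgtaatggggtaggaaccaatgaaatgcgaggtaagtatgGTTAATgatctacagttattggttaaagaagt
Gc: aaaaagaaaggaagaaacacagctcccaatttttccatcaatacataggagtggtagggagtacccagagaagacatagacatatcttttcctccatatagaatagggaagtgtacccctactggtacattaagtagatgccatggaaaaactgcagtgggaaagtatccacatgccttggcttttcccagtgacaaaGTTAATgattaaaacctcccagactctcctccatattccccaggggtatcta

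The total count on genes ran from 9837240 to 24332306 per sample (median 20683608), with the lowest in Tim4- KC replicate 1. The 75 pairs of replicates all differed by more than sampling noise, and the labels do not say what separates replicates, so p-values measure the spread between these samples only. The sorted cells carried their markers. Clec4f had 26794 to 241830 counts in KCs and at most 8 in AMs, Timd4 had 5 to 98 counts in Tim4- KCs and 6452 to 9783 in Tim4+ KCs, and Car4 had 8947 to 38996 counts in AMs and at most 5 in KCs. Zeb2 had 4682 to 7840 counts in CRE- KCs, 3234 to 4049 in Tim4+ KCs and 1925 to 3846 in Tim4- KCs. In AMs it had 3477 to 4465 counts without Cre, 1816 to 2652 in CD11b- cells and 868 to 1344 in CD11b+ cells, so transcript was still counted in every CRE+ sample. The study states that the floxed construct yields a truncated Zeb2 mRNA, and it reports Zeb2+/- cells in CRE+ mice. These counts therefore do not show how far Zeb2 was deleted. Replicates 5 and 6 of each KC group had no count on Xist, the transcript of the inactive X chromosome of females, and 2706 to 3663 counts on Y-linked genes. Replicates 1 to 4 had 260 to 534 counts on Xist, and all AM samples had Xist counts.

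Hepatocyte transcripts were counted in every KC sample and almost absent from AMs, with Trf as the exception. Of the 39 genes, 35 had a count in each of the 18 KC samples and 33 had at least 10 counts in each. In the 15 AM samples, 20 genes had no count at all, 18 genes other than Trf had at most 18 counts in a sample, and Trf was highly expressed. The summed level of the 38 genes without Trf, in CPM (counts scaled to the size of each library with TMM factors), lay between 469 and 1150 CPM in CRE- KCs, with a median of 574 CPM. In Tim4+ KCs it lay between 343 and 1030 CPM (median 620), and in Tim4- KCs between 203 and 558 CPM (median 405). These ranges overlapped, with CRE- KC replicate 3 (1150 CPM) and Tim4+ KC replicate 4 (1030 CPM) highest and Tim4- KC replicate 3 lowest. The same sum lay between 0.910 and 1.71 CPM in CRE- AMs, 0.373 and 1.85 CPM in CD11b- AMs and 0.122 and 1.52 CPM in CD11b+ AMs, from 2 to 36 counts per sample. Every KC sample was therefore above every AM sample in the summed level without Trf.

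**Figure D1:**
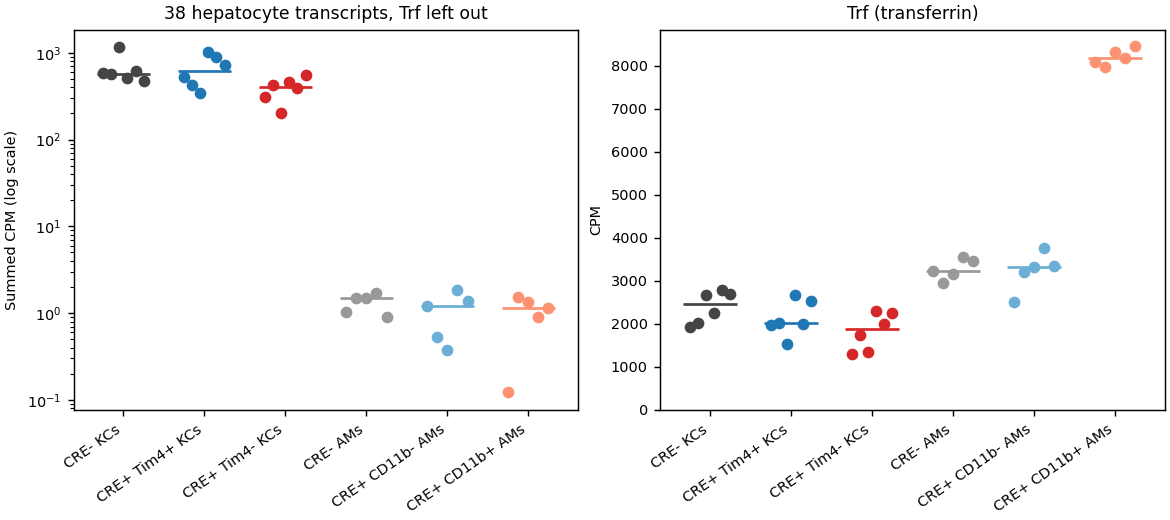
Summed level of the 38 hepatocyte transcripts other than Trf (left, CPM on a log axis) and level of Trf (right, CPM from 0) in each sample of the 6 groups. Points are samples and lines group medians. The sums lie between 203 and 1150 CPM in KCs and at or below 1.85 CPM in AMs, whereas Trf is at 1301 CPM or more in every sample and highest in CD11b+ AMs.

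Trf encodes transferrin, the iron carrier of plasma, and lies on chromosome 9 from 103204001 to 103230444. It ranged from 1912 to 2787 CPM in CRE- KCs (median 2452), from 1534 to 2663 CPM in Tim4+ KCs (median 2006) and from 1301 to 2287 CPM in Tim4- KCs (median 1865). The 5 samples of CRE- AMs had 3237, 2956, 3156, 3551 and 3459 CPM, those of CD11b- AMs 2501, 3200, 3317, 3752 and 3331 CPM, and those of CD11b+ AMs 8077, 7983, 8313, 8187 and 8467 CPM. AMs of CRE- mice were all above CRE- KCs, and CD11b+ AMs were above all other samples. Trf thus had more counts in lung macs of CRE- mice than in CRE- KCs, so its counts are not particular to liver samples, and their source was not tested. Only 20.22% of its stretches of 50 bases were unique to it among annotated transcripts, since the gene model Gm20425 overlaps it. Compared per kilobase of exon, Trf stood at 635 CPM per kb over the 18 KC samples, and the next genes were Apoa2 (48.7), Alb (41.9), Apoa1 (33), Serpina3k (18.1), Hpx (16.6) and Mup3 (14.0 CPM per kb). With Trf included, the summed level was mostly that of Trf, with medians of 2959 CPM in CRE- KCs, 2693 CPM in Tim4+ KCs and 2271 CPM in Tim4- KCs.

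Albumin, the main protein of plasma, had 564 to 4367 counts per KC sample. It lay between 75.0 and 192 CPM in CRE- KCs (median 98.5), between 66.8 and 197 CPM in Tim4+ KCs (median 104) and between 42.9 and 98.2 CPM in Tim4- KCs (median 67.0). CRE- KC replicate 3 and Tim4+ KC replicate 4 were the highest of their groups, and the 3 ranges overlapped. In AMs Alb had 7 counts in 1 sample and none in the other CRE- AMs. Among the other carriers, over all 18 KC samples, the hemopexin gene Hpx lay between 13.7 and 50.4 CPM (median 22.3), Ahsg (fetuin-A) between 8.76 and 62.9 CPM (median 26.2) and Gc between 7.96 and 56.8 CPM (median 22.4). The retinol carrier Rbp4 had 4.32 to 42.6 CPM (median 12.4), Ttr (transthyretin) 2.45 to 25.7 CPM (median 9.44) and Vtn (vitronectin) 2.25 to 27.9 CPM (median 9.44). Mup3, a major urinary protein, ranged from 0 to 68.1 CPM (median 8.47), the widest range among the carriers other than Trf and Alb. None of these genes was at 0 in more than 1 KC sample.

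Of the apolipoproteins, Apoa1 and Apoa2, the main proteins of high-density lipoprotein, lay between 13.7 and 71.7 CPM (median 35.3) and between 8.18 and 53.9 CPM (median 22.2) over the 18 KC samples. Apob, the structural protein of very-low-density lipoprotein, had 1.53 to 16.7 CPM (median 4.95), Apoc3 1.89 to 14.6 CPM (median 5.78) and Apoh 2.68 to 15.7 CPM (median 6.75). The highest value of Apoa1, Apoa2, Apob, Apoc3 and Apoh was that of CRE- KC replicate 3. The fibrinogen chains Fga, Fgb and Fgg, which form the clot, had medians of 10.2, 11.8 and 7.90 CPM, with ranges of 2.75 to 29.4, 5.61 to 31.3 and 1.15 to 19.2 CPM. Prothrombin (F2) lay between 1.73 and 26.3 CPM (median 8.27), plasminogen (Plg), which dissolves fibrin once activated, between 1.84 and 13.5 CPM (median 6.14), and kininogen (Kng1) between 2.30 and 22.1 CPM (median 9.54). All 6 genes of this class were thus detected in every KC sample, at levels close to each other.

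Among the protease inhibitors, Serpina3k was highest with 8.88 to 97.6 CPM (median 33.7). Antithrombin (Serpinc1) had 4.56 to 27.7 CPM (median 11.7), Itih4 1.53 to 12.4 CPM (median 5.35) and Ambp 0.204 to 14.0 CPM (median 5.62). The antitrypsin genes Serpina1a, Serpina1b and Serpina1c had medians of 5.73, 11.0 and 7.64 CPM, which are uncertain for the shared stretches shown above. Of the cytochrome P450s, which oxidize drugs and steroids, Cyp2e1 lay between 1.87 and 48.8 CPM (median 8.13) and Cyp3a11 between 1.81 and 54.2 CPM (median 8.27), while Cyp2c29 had 0.259 to 11.1 CPM (median 1.91) and Cyp1a2 0 to 8.29 CPM (median 0.970). CRE- KC replicate 3 was highest for all 4 genes.

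Of the metabolic enzymes, Mat1a, which makes S-adenosylmethionine, had 8.72 to 64.0 CPM (median 28.4), and Hpd, an enzyme of tyrosine breakdown, 6.62 to 32.5 CPM (median 13.5). Tat, which opens tyrosine breakdown, had 3.17 to 20.9 CPM (median 10.5), Tdo2, which opens tryptophan breakdown, 1.73 to 14.8 CPM (median 5.15), and Cps1, the entry enzyme of the urea cycle, 0.949 to 21.9 CPM (median 7.0). The gluconeogenic enzymes Pck1 and G6pc stood at 0.467 to 9.44 CPM (median 2.90) and 0 to 5.94 CPM (median 0.139). Ass1, another urea cycle enzyme, had at most 3 counts in a KC sample and did not pass the filter on low counts, and only 44.69% of its stretches of 50 bases were unique.

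CRE- KCs were compared with CRE- AMs to ask which of these transcripts set the liver samples apart (edgeR's quasi-likelihood test over 12145 genes; a gene was called with a Benjamini-Hochberg adjusted p-value under 0.05 and a log2 fold change beyond 1). Of the 36 genes tested, 35 were higher in KCs, where 20.9% of all genes tested were higher and 12.4% lower. These genes passed the filter on low counts through the KC samples, so this count was set by the filter and nothing is read from it. Only Trf was left to test when at least 10 counts were asked for in every sample. For Alb the log2 fold change of 10.59 (SE 0.517) rested on the 7 counts of CRE- AM replicate 5, and it was 14.21 without that replicate. Of all 39 genes, 27 had no count in any CRE- AM sample, and for the 26 of these that exceeded the floor of 3 counts per library (0.142 CPM) in CRE- KCs, the highest bounds were those of Apoa1 (at least 320-fold higher in KCs) and Serpina3k (at least 282-fold higher). Trf was the 1 gene tested that was not higher, with 2385 ± 378 CPM in KCs (SD, n = 6) and 3272 ± 238 CPM in AMs (SD, n = 5), which is -0.45 on the log2 scale (SE 0.0980, adjusted p = 0.00113 with edgeR) and not beyond 1. The tissues also differ in digestion and sort, and these cannot be told apart from the cell type here.

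Tim4- KCs of CRE+ mice, in which Zeb2 was still counted, were compared with CRE- KCs, so that Zeb2 genotype and Tim4 status differ together and cannot be told apart here. Of 38 genes tested, 5 fell and none rose, where 5.39% of 12500 genes tested were lower and 3.43% higher (edgeR's quasi-likelihood test, same cut-offs). All 38 fold changes were below 0, with a median log2 fold change of -0.79, against -0.03 over all genes tested, and they ranged from -2.92 (G6pc, adjusted p = 0.0873 with edgeR) to -0.40 (Hpd). By role, the medians were -0.59 for apolipoproteins, -0.68 for carriers, -0.98 for coagulation and fibrinolysis, -0.71 for protease inhibitors, -1.09 for P450s and -1.08 for metabolic enzymes. The genes that fell were Plg, Fgb and F2 of the coagulation class, Apob and Vtn.

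Plg lies on chromosome 17 from 12378608 to 12419385. It had 6.54 to 13.5 CPM in CRE- KCs (median 7.86), 3.19 to 11.3 CPM in Tim4+ KCs (median 5.93) and 1.84 to 5.74 CPM in Tim4- KCs (median 3.54). All 6 samples of Tim4- KCs were below all 6 of CRE- KCs. This held for no other of the 38 genes, but the share over all genes was not computed, so nothing is read from that count. The means were 8.59 ± 2.63 CPM in CRE- KCs and 3.47 ± 1.46 CPM in Tim4- KCs (SD, n = 6 each), on the log2 scale a change of -1.32 (SE 0.328, adjusted p = 0.00544 with edgeR). Vtn, on chromosome 11 from 78499091 to 78502324, is an adhesive plasma protein. It had 6.80 to 19.3 CPM in CRE- KCs (median 10.9), 8.5 to 27.9 CPM in Tim4+ KCs (median 12.8) and 2.25 to 8.65 CPM in Tim4- KCs (median 5.58). The Tim4- samples overlapped with the lower CRE- samples and reached just above the lowest Tim4+ sample. Against CRE- KCs the log2 fold change of Vtn was -1.04 (SE 0.325, adjusted p = 0.0223 with edgeR).

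Apob (chromosome 12, 7977648 to 8016835) had 4.42 to 16.7 CPM in CRE- KCs (median 6.28), 1.62 to 9.51 CPM in Tim4+ KCs (median 5.74) and 1.53 to 5.09 CPM in Tim4- KCs (median 3.11). The highest CRE- value, 16.7 CPM, was that of replicate 3, and the other CRE- samples ended at 6.91 CPM. Its log2 fold change in Tim4- KCs against CRE- KCs was -1.31 (SE 0.427, adjusted p = 0.0281 with edgeR). Fgb (chromosome 3, 83040141 to 83049863) had 9.13 to 31.3 CPM in CRE- KCs (median 14.7), 5.87 to 20.4 CPM in Tim4+ KCs (median 13.3) and 5.61 to 11.5 CPM in Tim4- KCs (median 8.01). Here too the ranges overlapped, and the log2 fold change was -1.01 (SE 0.303, adjusted p = 0.0183 with edgeR). F2 (chromosome 2, 91625320 to 91636414) had 5.58 to 26.3 CPM in CRE- KCs (median 8.35), 7.5 to 19.4 CPM in Tim4+ KCs (median 9.67) and 1.73 to 8.60 CPM in Tim4- KCs (median 5.10). Its log2 fold change was -1.07 (SE 0.377, adjusted p = 0.0432 with edgeR), with overlap of the groups. Gc passed the adjusted p-value (0.0476 with edgeR) but not the fold change (-0.92). For Alb itself the log2 fold change was -0.68 (SE 0.262, adjusted p = 0.0610) and for Trf -0.41 (adjusted p = 0.0540), neither of them called by edgeR.

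The 5 calls rested in part on single samples. Without CRE- KC replicate 3, 1 gene was called and the median log2 fold change of the 38 genes was -0.52, and without Tim4- KC replicate 3, 1 gene was called and the median was -0.63. With limma-voom, which the study's methods name, 2 genes were called, and within replicates 1 to 4 alone 7 of 37 genes were lower. Shares over all genes are not given for these fits, so the counts by themselves are no result about these transcripts. Plg kept its call under all 28 alternatives run, whereas Apob lost its call in 5, Vtn in 6 and Fgb and F2 in 15 of 28 each.

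Tim4- KCs were also compared with Tim4+ KCs of the same genotype. Of 38 genes, 2 fell and none rose, where 5.01% of all genes tested were lower and 0.440% higher. A share of 2 in 38 is near that over all genes, so the count by itself is no result about these transcripts. The median log2 fold change was -0.75, against 0.01 over all genes tested, and 37 of 38 were below 0, with Cyp1a2 (0.21) as the exception. Vtn had 14.98 ± 6.70 CPM in Tim4+ KCs and 5.68 ± 2.56 CPM in Tim4- KCs (SD, n = 6 each), on the log2 scale a change of -1.39 (SE 0.326, adjusted p = 0.00717 with edgeR). Serpina1a had 5.02 to 10.6 CPM in CRE- KCs (median 6.56), 4.10 to 18.3 CPM in Tim4+ KCs (median 6.84) and 2.51 to 5.66 CPM in Tim4- KCs (median 3.84). Its log2 fold change against Tim4+ KCs was -1.09 (SE 0.325, adjusted p = 0.0330 with edgeR), and its count is uncertain because of the reads it can share with Serpina1b and Serpina1c, whose log2 fold changes were -0.81 and -1.02. Hpx had 17.0 to 50.4 CPM in Tim4+ KCs (median 28.5) and 13.7 to 20.6 CPM in Tim4- KCs (median 18.1), and it passed the adjusted p-value (0.0202 with edgeR) but not the fold change (-0.81, SE 0.222). None of the 38 genes was without overlap between these groups, and the share over all genes was not computed. Replicate numbers paired the samples in this comparison, and with the replicate block 1 gene was called, since the log2 fold change of Serpina1a was then -0.98 and that of Vtn -1.40. Tim4- KCs are part of this comparison and of the former, so the pair of results is not independent.

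In Tim4+ KCs against CRE- KCs none of the 38 genes was called, where 1.94% of all genes tested were higher and 0.376% lower (edgeR's quasi-likelihood test). Limma-voom and DESeq2 called none either, and 1 gene, Cyp3a11, had an unadjusted p under 0.05 with edgeR. The median log2 fold change was -0.05, with 21 genes below 0, and it was 0.23 without CRE- KC replicate 3 and -0.24 without Tim4+ KC replicate 4. Cyp3a11, the main drug-inducible P450, had 6.01 to 54.2 CPM in CRE- KCs (median 12.5) and 2.48 to 13.7 CPM in Tim4+ KCs (median 7.82), on the log2 scale a change of -1.31 (SE 0.593, adjusted p = 0.251 with edgeR). Its highest value was again that of CRE- KC replicate 3. The other P450s also had negative values in this comparison, the median of the 4 being -0.89, and the protease inhibitors had a median of 0.17.

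**Figure D2:**
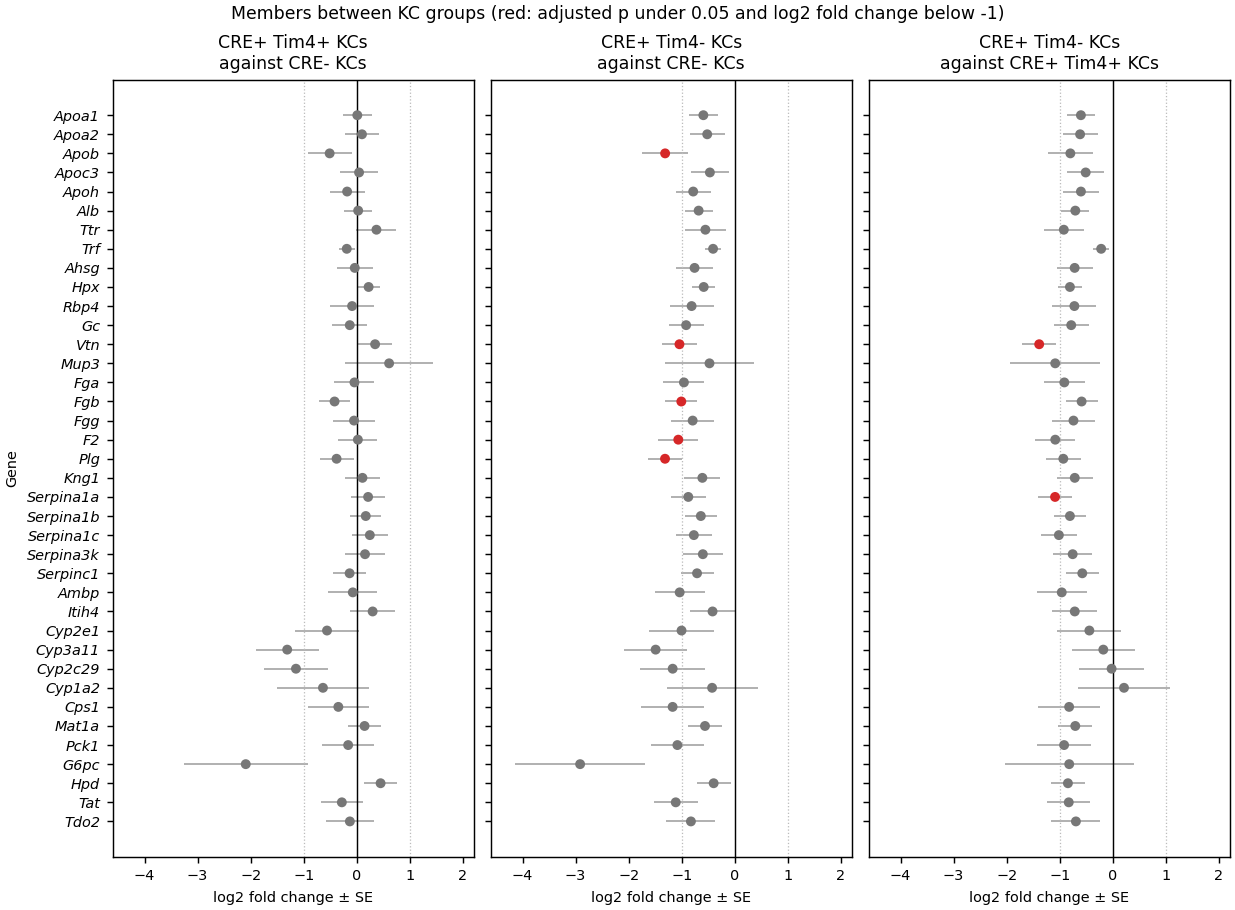
Log2 fold changes (points, with SE as bars) of the 38 hepatocyte transcripts tested, in the 3 comparisons between KC groups. Red points passed an adjusted p-value of 0.05 with a log2 fold change below -1: 5 genes in Tim4- against CRE- KCs, 2 in Tim4- against Tim4+ KCs and none in Tim4+ against CRE- KCs, where points lie on both sides of 0.

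Lists of other hepatocyte genes also had negative medians in Tim4- KCs. Over all genes tested, 5.39% were lower and 3.43% higher in Tim4- against CRE- KCs, and 5.01% and 0.440% against Tim4+ KCs. In Tim4+ against CRE- KCs 0.376% were lower and 1.94% higher. List counts near these shares, such as 2 of 32 and 2 of 28 genes against Tim4+ KCs, are no result about the lists. Of 32 further plasma protein genes, with Hp (haptoglobin, mean 13.8 CPM in KCs) and Serpina1d (13.5 CPM) highest, 4 fell and 1 rose in Tim4- against CRE- KCs, with a median log2 fold change of -0.62. Against Tim4+ KCs 2 fell and none rose (median -0.75), and in Tim4+ against CRE- KCs 1 rose and none fell (median 0.15). Of 28 further enzymes and transporters, led by Oat (173 CPM) and Glul (110 CPM), 3 fell in Tim4- against CRE- KCs (median -0.71), 2 fell against Tim4+ KCs (median -1.02), and none was called in Tim4+ against CRE- KCs (median 0.23). Against AMs, 25 of 28 plasma protein genes tested and 21 of 26 enzymes and transporters were higher in CRE- KCs, counts that the filter on low counts favours in the same way. The summed levels overlapped between the tissues, and 20 of 32 plasma protein genes and 15 of 28 enzymes and transporters were at 0 in all CRE- AMs. Further plasma protein genes summed to 96.7 to 218 CPM in CRE- KCs and 134 to 169 CPM in CRE- AMs, and further enzymes and transporters to 389 to 575 CPM and 488 to 632 CPM. Of 10 transcription factors of hepatocytes, 5 were tested, with Hnf4a (mean 1.92 CPM) and Foxa3 (1.14 CPM) highest. None was called against CRE- KCs, and 1 was lower in Tim4- than in Tim4+ KCs. Their summed level lay between 4.46 and 9.22 CPM in CRE- KCs, 6.69 and 14.5 CPM in Tim4+ KCs and 2.59 and 7.68 CPM in Tim4- KCs.

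Markers of liver endothelial cells fell in the comparisons of Tim4- KCs. There 5.39% of all genes tested were lower against CRE- KCs and 5.01% against Tim4+ KCs. Of 15 such genes, led by Ehd3 (344 CPM) and Stab2 (246 CPM), 13 were lower in Tim4- than in CRE- KCs, with a median log2 fold change of -1.44, and 14 were lower than in Tim4+ KCs, with a median of -2.11. Their summed level ranged from 1073 to 3302 CPM in CRE- KCs, 1893 to 5356 CPM in Tim4+ KCs and 689 to 922 CPM in Tim4- KCs, and none of the 15 was at 0 there. Of 10 stellate cell genes tested 1 was lower in each of these comparisons, and the stellate sum had medians of 266 CPM in CRE- KCs, 161 CPM in Tim4+ KCs and 71.6 CPM in Tim4- KCs. That sum was led by Ecm1 (mean 122.8 CPM over KCs), with Hgf next (18.1 CPM). The study lists Ecm1 among genes that differ between monocyte-derived and embryonic KCs. It names Cdh5, which is on the endothelial list, as a core KC gene. Whether the sums fell through other cells or through the macs was not tested. The monocyte sum was higher in Tim4- KCs, with 8.10 to 15.2 CPM in CRE- KCs, 23.8 to 43.6 CPM in Tim4+ KCs and 80.7 to 176.8 CPM in Tim4- KCs. The 7 KC markers include Timd4, whose product Tim4 was used for the sort, so that its level in Tim4- KCs was set by the gate. Of these 7 markers 4 were lower in Tim4- than in CRE- KCs. What part these cells have in the lower levels of hepatocyte transcripts was not tested. The summed level of the 38 hepatocyte transcripts without Trf had a Pearson's r of -0.17 and a Spearman's rho of -0.27 with the endothelial sum over the 18 KC samples once group means were removed, given as a description.

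In AMs, 2 of the 39 genes passed the filter on low counts, Trf and Itih4. Trf rose in CD11b+ AMs, with 8205 ± 191.5 CPM against 3272 ± 238 CPM in CRE- AMs (SD, n = 5 each), on the log2 scale a change of 1.31 (SE 0.0780, adjusted p = 4.57e-11 with edgeR), where 9.57% of 11573 genes tested were higher and 5.68% lower. The 5 CD11b+ samples were all above the 5 CRE- samples. CD11b- AMs had 3220 ± 453 CPM (SD, n = 5), within the range of the controls (log2 fold change -0.03), and neither gene was called there, where 3.98% of genes were higher and 2.51% lower. Limma-voom and DESeq2 called neither gene in this comparison, and neither had an unadjusted p under 0.05 with edgeR. Itih4 was near the limit of counting in AMs, with at most 18 counts, and had log2 fold changes of 0.59 and 0.68, not called.

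The next question was whether the transcripts vary together among replicates. Log2 CPM values were centred on the mean of each KC group, so that differences between groups do not enter. Alb was used as the anchor, and a gene was said to follow Alb when its slope on centred Alb in edgeR's fit of all genes had an adjusted p-value under 0.05. Of 12499 genes tested, 22 (0.176%) followed Alb, all with a positive slope, and 14 of the 37 other hepatocyte transcripts tested were among them. These were Ahsg, Serpinc1, Gc, Vtn, Kng1, Rbp4, Fgg, F2, Apoa2, Apoh, Cyp3a11, Hpx, Apoc3 and Itih4. At an unadjusted p under 0.05, 31 of the 37 genes and 2.87% of all genes had a positive slope. Pearson's r with Alb exceeded 0.5 for 30 of the 37 genes (median 0.73) and for 3.07% of all genes.

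Ahsg was closest to Alb, with r = 0.92 and rho = 0.93 over the 18 KC samples (n = 18, permutation p = 1e-05 for both, the smallest that 100000 permutations within groups can give, and 0.0833 and 0.125 after Benjamini-Hochberg adjustment over 12499 genes). Within the groups r was 0.99 in CRE- KCs, 0.93 in Tim4+ KCs and 0.89 in Tim4- KCs. Its slope on Alb was 1.20 log2 units per log2 unit (SE 0.132, adjusted p = 0.000240 with edgeR). The permutation test gave no gene at an adjusted p under 0.05, whether by Pearson's r or by Spearman's rho. By Pearson's r, 696 genes, 30 of the 37 among them, had an unadjusted p under 0.05. Of the 14 genes that followed Alb, only Ahsg was at the smallest permutation p. The others ranged from 2e-05 (Kng1) to 0.00108 (Cyp3a11) by Pearson's r, above that limit. By Spearman's rho, Ahsg had an adjusted p of 0.125 even at the smallest permutation p, so a gene alone at that limit could not be called. The lack of calls by permutation is therefore not set against the calls by edgeR. Cyp3a11 had the steepest slope of the 14 genes (1.81) and Hpx the flattest (0.64). Since Alb and each gene were read from the same library, depth and composition are shared by the points. Tim4+ and Tim4- samples of the same number were paired, but the permutations shuffled each group on its own. The main edgeR fit of the slopes had no term for these pairs either. The p-values of both tests thus treat the 18 samples as independent and can be too small.

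The calls rested on single samples, both high and low in Alb. CRE- KC replicate 3 (0.86 log2 units above its group mean) and Tim4+ KC replicate 4 (0.87 above) lay farthest from the median. Without this pair no gene at all followed Alb at an adjusted p under 0.05, and at an unadjusted p 26 of the 37 genes and 2.53% of all genes had a positive slope. The median r with Alb was then 0.59, with 26 of 37 genes above 0.5, and r of Ahsg was 0.87. Without CRE- KC replicate 3 alone 1 of the 37 genes followed Alb (1 over all genes tested), without Tim4+ KC replicate 4 alone 2 (4 over all genes), without Tim4+ KC replicate 3, the lowest of its group in Alb, 1 (2 over all genes), and without CRE- KC replicate 6 4 (8 over all genes). With Apoa1 as the anchor 5 of the 37 genes followed (11 over all genes) and with Fgb 2 (2 over all genes). Within replicates 1 to 4, which share the Xist pattern, 7 of 36 genes followed, with 15 positive slopes and 1 negative slope over all genes, and the median r with Alb was 0.81. Within replicates 5 and 6 the median r was 0.45 over 6 samples.

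**Figure D3:**
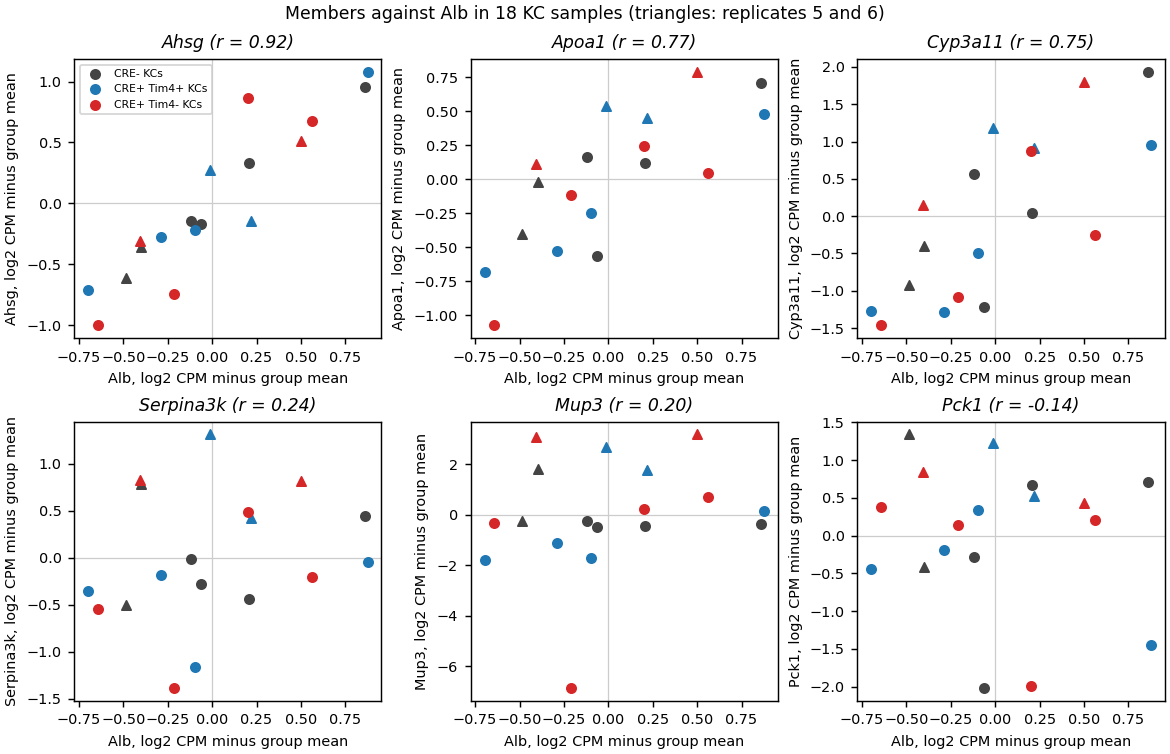
Centred log2 CPM of single hepatocyte transcripts (vertical axes) against that of Alb (horizontal axes) in 18 KC samples, coloured by group, with triangles for replicates 5 and 6. Ahsg rises with Alb (r = 0.92), whereas Pck1 (r = -0.14) and Mup3 (r = 0.20) are spread without a clear slope.

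By role, 3 of 5 apolipoproteins, 5 of 8 carriers, 3 of 6 coagulation genes, 2 of 7 protease inhibitors and 1 of 4 P450s followed Alb, but none of 7 metabolic enzymes. The median r of the enzymes was 0.41, with 2 of 7 above 0.5, Mat1a (r = 0.72) and Hpd (r = 0.55). All 5 apolipoproteins, 6 coagulation genes and 4 P450s had an r above 0.5. Lowest were Pck1 (r = -0.14), Tdo2 (0.10), Mup3 (0.20), Serpina3k (0.24), Tat (0.33), Cps1 (0.41) and G6pc (0.42). None of these 7 had a permutation p under 0.1 by Pearson's r. By Spearman's rho, Cps1 (permutation p = 0.0693) and G6pc (permutation p = 0.0749) did. The slope of G6pc had an unadjusted p of 0.0340 with edgeR. Trf had r = 0.58 with a slope of 0.33, far flatter than the slopes of the 14 genes. The genes between these ends did not follow Alb at the adjusted p-value although r exceeded 0.5, from Fgb (0.78), Apoa1 (0.77), Serpina1a (0.75), Cyp1a2 (0.74), Plg (0.73) and Cyp2c29 (0.72) to Serpina1b (0.70), Ttr (0.68), Fga (0.68), Apob (0.67), Cyp2e1 (0.60), Ambp (0.58) and Serpina1c (0.55).

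Outside the 39 genes, the 10 with the highest r with Alb over the 18 KC samples were Pon1 (0.87), Mettl7b (0.84), Ces1c (0.84), Serpinf2 (0.83), Clu (0.83), Pzp (0.82), Igfbp2 (0.81), Cyp2c37 (0.81), Tmem37 (0.81) and Mrps6 (0.79). Of these, Pon1, Ces1c, Serpinf2 and Pzp were on the list of further plasma protein genes. The genes that followed Alb outside the 39 were Pon1, Clu, Mettl7b, Pzp, Ces1c, Agt, Slc27a5 and Serpinf2. On that list 22 of 32 genes had an r above 0.5 (median 0.63), among further enzymes and transporters 10 of 28 (median 0.38), and among the transcription factors none of 5 (median 0.00). The next lists, of genes by zone of the liver, overlap with the 39 genes. Of 8 genes of hepatocytes around the central vein 6 exceeded 0.5, with Cyp2e1, Cyp1a2 and Cyp2c29 of the 39 among these. Of 7 genes of those around the portal vein, which include Cps1 and Pck1 of the 39, none did (median 0.20). No gene of 15 endothelial, 10 stellate, 4 B cell or 5 T cell markers exceeded 0.5, whereas 1 of 7 KC markers did and so did Spp1 (r = 0.71), the 1 gene tested of the cholangiocyte markers. The summed level of the 38 genes without Trf had r = 0.97 with that of further plasma protein genes, 0.78 with that of further enzymes and transporters, 0.44 with platelet, 0.26 with cholangiocyte, 0.25 with stellate, 0.15 with neutrophil, -0.28 with KC, -0.32 with monocyte, -0.49 with T cell and -0.62 with B cell markers (n = 18 each, descriptions across samples of shared libraries).

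Among the 38 genes tested, Pearson's r of centred levels over the 18 KC samples was computed for all 703 pairs. The median r was 0.59 and 66.0% of pairs exceeded 0.5, against a median of -0.00 and 5.21% for pairs of all genes. The median was 0.57 within CRE- KCs, 0.77 within Tim4+ KCs and 0.56 within Tim4- KCs. Closest were Apoa1 and Cyp3a11 (0.95), Alb and Ahsg (0.92), Apoa1 and Apoa2 (0.90), Rbp4 and Cyp3a11 (0.90) and Mat1a and Hpd (0.89). Pairs within the carriers had a median of 0.75, within the apolipoproteins 0.73, within coagulation 0.72, within the P450s 0.70, within the protease inhibitors 0.61 and within the enzymes 0.53. Enzymes had medians of 0.35 with coagulation genes, 0.35 with protease inhibitors, 0.42 with carriers, 0.47 with apolipoproteins and 0.50 with P450s. Pck1 had the lowest median r with the other genes (-0.10) and Rbp4 the highest (0.75). Without the pair of samples highest in Alb the median was 0.48 with 46.9% of pairs above 0.5, against 6.65% for all genes. It was 0.65 within replicates 1 to 4 and 0.45 within the 6 samples of replicates 5 and 6, where 46.2% of these pairs and 25.2% of pairs of all genes exceeded 0.5. With the replicate block the median was 0.70.

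**Figure D4:**
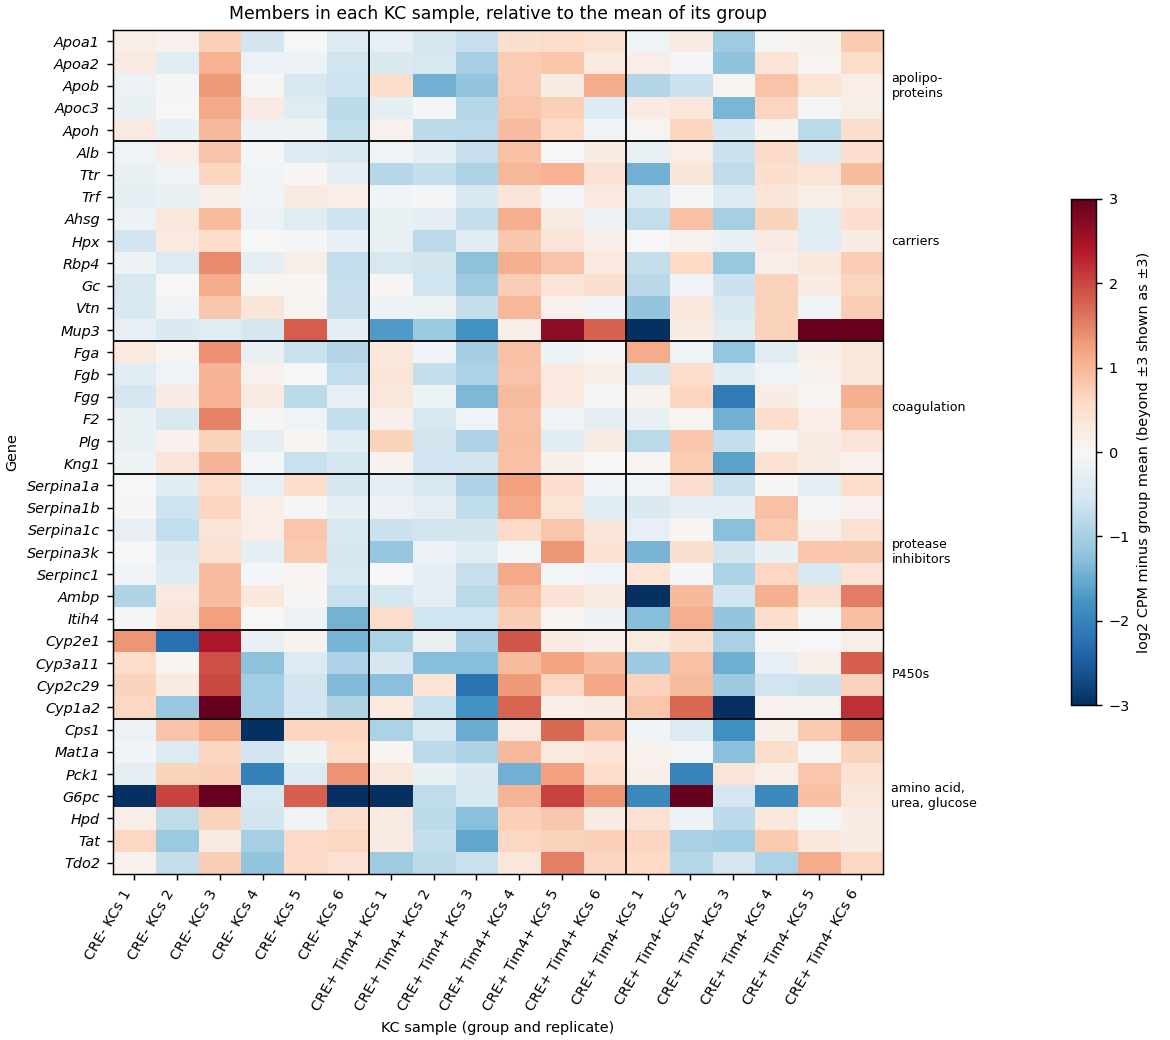
Centred log2 CPM of the 38 hepatocyte transcripts tested (rows, ordered by role) in the 18 KC samples (columns, by group and replicate), relative to the mean of each group. Columns of CRE- KC replicate 3 and Tim4+ KC replicate 4 are high for most genes and those of Tim4+ and Tim4- KC replicate 3 low, whereas Pck1 and Mup3 deviate from the rest.

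If the genes rose and fell by the same factor, their ratio to Alb would be constant apart from counting error. The ratio was therefore computed from raw counts in each KC sample, per 100 Alb counts. Ahsg had 18.1 to 41.5 counts per 100 Alb counts (median 28), Serpinc1 8.96 to 20.2 (median 12.5), Hpx 17.6 to 35.5 (median 25.5) and Apoa1 29.4 to 61.6 (median 42.5). These were the steadiest ratios, with an SD of the log2 ratio of 0.27, 0.29, 0.30 and 0.34, where counting error alone gave 0.08, 0.10, 0.08 and 0.07. The median SD over the genes was 0.52. Ratios of the P450s and of most enzymes varied more, though not that of Mat1a (SD of the log2 ratio 0.43). Outside these classes Mup3 (1.43), Ambp (1.05) and Serpina3k (0.76) also varied more. Cyp2e1 had 1.55 to 25.4 counts per 100 Alb counts (SD of the log2 ratio 0.96), Cps1 0.943 to 20.5 (1.14) and Pck1 0.612 to 12.6 (1.17), where counting error alone gave 0.13, 0.17 and 0.22. The lowest ratio of Cyp2e1 was that of CRE- KC replicate 2 and the lowest of Cps1 that of CRE- KC replicate 4.

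Mup3 and Serpina3k differed by replicate number. Mup3 (chromosome 4, 62083476 to 62087342) belongs to a family of pheromone carriers whose expression in the liver is known to be higher in males. Per 100 Alb counts, replicates 1 to 6 had 9.7, 6.8, 4.5, 7.9, 49.0 and 12.4 Mup3 counts in CRE- KCs. In Tim4+ KCs they had 3.2, 5.5, 4.6, 6.0, 63.8 and 28.9, and in Tim4- KCs 0, 4.3, 5.2, 4.6, 47.5 and 27.2. Replicates 5 and 6, those without Xist counts, were above replicates 1 to 4 in all 3 groups. Mup3 was the 1 gene of the 39 whose ratio did not overlap between them, with the share over all genes not computed. Of its stretches of 50 bases 84.39% were unique, so that reads of other Mup genes may be split with it. The split was seen when the counts were examined, and it is a description. A list of 11 genes known to be higher in male liver had 0.177 to 3.10 counts per 100 Alb counts in replicates 1 to 4 and 14.1 to 124.8 in replicates 5 and 6. A list of 12 genes known to be higher in female liver had 3.70 to 14.6 and 0 to 2.48.

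Serpina3k (chromosome 12, 104338486 to 104346144), a growth hormone-dependent serpin, had 38.9, 23.1, 27.1, 31.1, 82.3 and 35.7 counts per 100 Alb counts in replicates 1 to 6 of CRE- KCs. In Tim4+ KCs these were 17.5, 39.4, 46.4, 19.3, 91.5 and 42.0, and in Tim4- KCs 15.4, 42.5, 37.4, 20.5, 82.3 and 43.6. Samples of Tim4+ and Tim4- KCs with the same number had nearly the same Serpina3k ratio. Of 34 genes compared in this way, Serpina3k had the highest r of the log2 ratio between these groups (0.98). The median was 0.43 and the lowest that of Itih4 (-0.86). For Serpina3k the mean absolute difference of the log2 ratio was 0.15 for the same number and 1.04 for other numbers. For 24 of 34 genes this difference was smaller for the same number, whereas a profile of 31 genes matched best to the own number in 1 of 6 Tim4- samples and 2 of 6 Tim4+ samples (r of 0.03 to 0.58 and median 0.23 for the same number, median -0.06 for others).

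**Figure D5:**
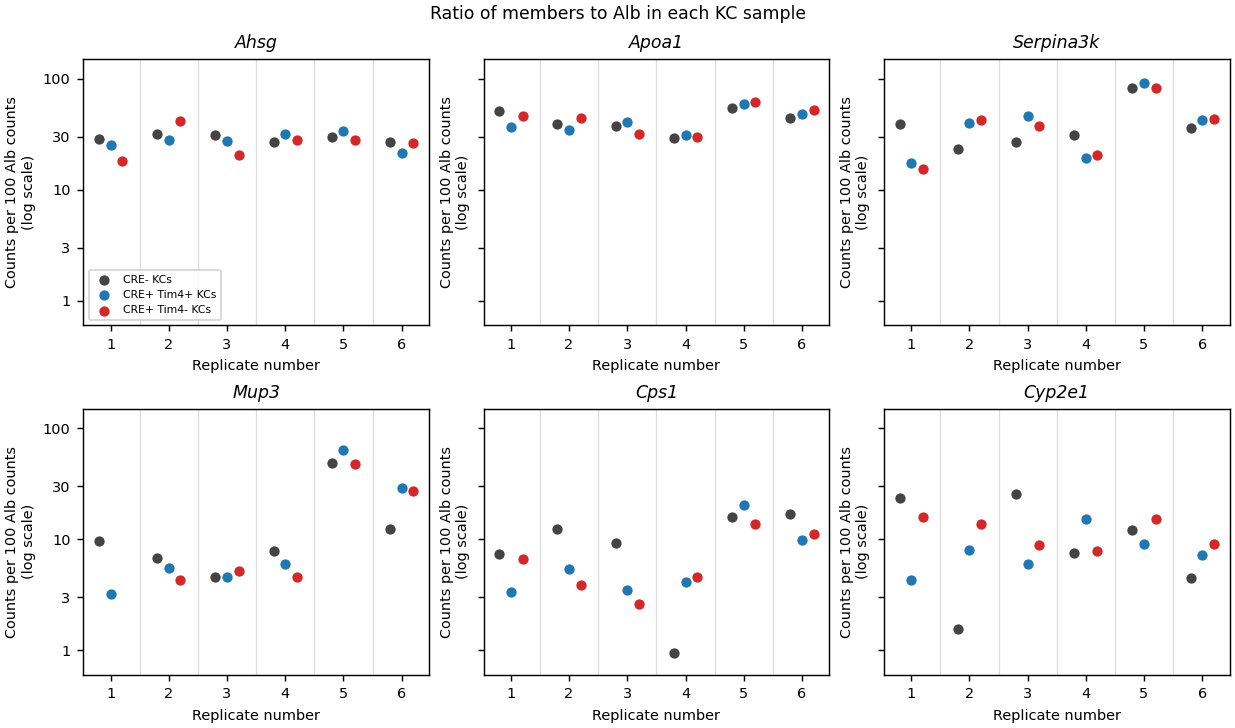
Counts of single hepatocyte transcripts per 100 Alb counts (vertical axes, log scale) by replicate number (horizontal axes), coloured by KC group. Ahsg stays between 18.1 and 41.5 in all samples, whereas Mup3 is highest in replicate 5 of each group, at 47.5 to 63.8.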

How the data were processed

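Bulk RNA-seq of sorted KCs (18 samples) and AMs (15 samples) was analysed from the counts per gene symbol that the authors deposited. Per the labels and methods, the authors trimmed reads with Trimmomatic 0.35, mapped them to mm10 with TopHat2 2.1.0 and counted them with HTSeq-count, without normalization. The annotation and the strand setting are not given in the sources used here. The 5 tally rows (5.88 to 10.1% of reads) were left out. The genes, lists and tests were chosen with earlier results of these data known.

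Counts were tested in R 4.3.3 with edgeR 4.0.16 (TMM, edgeR's filter on low counts, quasi-likelihood test), fitting the 18 KC samples, the 15 AM samples or the 11 CRE- samples. Calls needed a Benjamini-Hochberg adjusted p-value under 0.05 and a log2 fold change beyond 1. SEs are the fold change divided by the square root of F. Log2 CPM used a prior count of 0.5, and correlations 100000 permutations of samples within groups. Positions came from GENCODE M21, which held 95.7% of the symbols, and promoters from RefSeq. The test was checked on simulated counts with the same fixed dispersion for all genes, which were drawn independently. Such counts lack the single high samples seen here, so that check does not cover them. Alternatives were limma-voom (limma 3.58.1), DESeq2 1.42.0, RLE factors, other filters on counts, no fold-change cut-off, other samples, Ddx3y as a covariate, the replicate block, other anchors and leaving out each replicate. Permutations and ratios were computed in Python 3.11.15 (numpy 2.4.6, pandas 2.3.3). Samples were grouped by their labels. Between Tim4- and Tim4+ KCs the numbers from the titles paired the samples, with r of 0.11 to 0.25 in all 6 pairs and -0.04 on average otherwise. Named genes are Alb, the top 2 genes of each role, genes called, genes that did not follow Alb, Trf, Mup3, and the top 10 outside the list.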

Additional observations from a re-analysis of the deposited data

Results flagged for a closer look

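In 24 of 123 groups of values tested, the highest sample stood apart from the others by Dixon's criterion, which chance alone meets in about 1 in 20 groups. CRE- KC replicate 3 accounted for 15 of these and Tim4+ KC replicate 4 for 6. The genes share libraries, so the 24 cases are not independent, and the cause was not tested.

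In CRE- KC replicate 3 the summed level without Trf was 1150 CPM, with 469 to 609 CPM in the other 5 samples. Among lipid and plasma carriers, this sample had 16.7 CPM of Apob (4.42 to 6.91 in the others), 14.6 CPM of Apoc3 (3.77 to 7.70), 17.3 CPM of Ttr (9.05 to 11.3), 42.6 CPM of Rbp4 (9.48 to 17.7) and 56.8 CPM of Gc (16.1 to 27.3). Of the coagulation genes, Fga had 29.4 CPM there (6.15 to 13.7 in the others), Fgb 31.3 CPM (9.13 to 16.5), F2 26.3 CPM (5.58 to 9.49) and Plg 13.5 CPM (6.54 to 9.02). Serpinc1 had 27.4 CPM (10.2 to 14.7), Cyp3a11 54.2 CPM (6.01 to 20.7), Cyp2c29 11.1 CPM (1.08 to 4.36), Cyp1a2 8.29 CPM (0.436 to 1.52) and G6pc 5.94 CPM (0 to 1.31).

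Tim4+ KC replicate 4 had 27.9 CPM of Vtn (8.5 to 15.3 in the others), 19.4 CPM of F2 (7.5 to 11.6), 22.1 CPM of Kng1 (8.06 to 13.3), 27.7 CPM of Serpinc1 (7.94 to 12.6), 29.8 CPM of Cyp2e1 (4.01 to 9.57) and 3.34 CPM of Cyp1a2 (0.259 to 1.20). CRE- KC replicate 5 had 38.8 CPM of Mup3 (7.91 to 9.36 in the others). In Tim4- KCs, replicate 4 had 15.1 CPM of Serpina1b (6.12 to 8.97) and replicate 2 had 0.765 CPM of G6pc (0 to 0.149), the latter from at most 18 counts.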

How the results depend on the processing

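No call changed direction under any alternative run. The median log2 fold change in Tim4+ against CRE- KCs did, from -0.05 to 0.23 without CRE- replicate 3, 0.08 without Tim4+ replicate 3 and 0.03 without Tim4+ replicate 1 or 2. In Tim4- against CRE- KCs, 5 genes were called; limma-voom called 2 and the fit of all 33 samples 3. Leaving out single replicates gave 1 to 7, with 1 without CRE- replicate 3 or Tim4- replicate 3 and 3 without Tim4+ replicate 1, 5 or 6 or Tim4- replicate 1 or 5. In Tim4- against Tim4+ KCs, 2 genes were called; limma-voom called 1, DESeq2 4, the replicate block 1 and replicates 1 to 4 alone 1. Leaving out single replicates gave 1 to 5, with 5 without Tim4+ replicate 3 and 1 without Tim4+ replicate 4 or 5 or Tim4- replicate 3 or 5. No gene was called in Tim4+ against CRE- KCs or in CD11b- AMs whichever replicate was left out (0 in each). Shares over all genes are not given for the alternatives in this paragraph, so their counts by themselves are no result about these transcripts.

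In CRE- KCs against CRE- AMs, 35 genes were called, and 35 to 36 without single replicates. With at least 10 counts in every sample 1 gene, Trf, was left to test and 0 were called, since that filter drops genes absent from AMs. In CD11b+ AMs 1 gene was called, 1 without any single replicate, and 2 of 38 in the fit of all 33 samples.

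Of the 37 genes 14 followed Alb, and of all genes 22. With limma-voom these were 25, with 59 positive slopes and 1 negative slope over all genes. With Apoa1 as anchor 5 followed (11 over all genes) and with Fgb 2 (2 over all genes). Within replicates 1 to 4 it was 7 (15 positive and 1 negative over all genes), and without the pair of samples highest in Alb 0 (0 over all genes). Leaving out single replicates gave 1 to 16: 1 without CRE- replicate 3 or Tim4+ replicate 3, 2 without Tim4+ replicate 4, 4 without CRE- replicate 6, Tim4+ replicate 2 or Tim4- replicate 6, 5 without Tim4- replicate 2, 6 without CRE- replicate 4, 7 without CRE- replicate 5 or Tim4- replicate 3, and 9 without Tim4+ replicate 6. Over all genes, the fits without single replicates gave 1 to 26. The replicate block gave 18 (32 positive and 1 negative over all genes) and Ddx3y as a covariate 21 (48 positive and 4 negative over all genes). The median pairwise r of 0.59 was 0.70 with the replicate block and 0.54 to 0.65 without single replicates. Without Trf, the median summed level was 574 CPM in CRE- KCs, 620 CPM in Tim4+ KCs and 405 CPM in Tim4- KCs. Restricting to replicates 1 to 4, leaving out the pair highest in Alb and leaving out Trf were chosen after seeing the data. Why these values moved was not tested, apart from the filter named.

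Between the other pairs of groups the labels give the samples only a shared number. Against CRE- KCs, 2 of 6 KC samples correlated best with their own number in both comparisons. Between CRE- KCs and CRE- AMs 2 of 5 did, and in CD11b- AMs 0 of 5. In CD11b+ AMs 5 of 5 did, with r of 0.04 to 0.09 and -0.01 on average for other numbers. These samples may therefore be paired with CRE- AMs, and the main test took them as unpaired. The replicate block changed no other call count by over 1.5 times and gave 5 genes in Tim4- against CRE- KCs. Ddx3y as a covariate was not run in AMs. Depth limits the genes near the floor of 3 counts, Ass1, G6pc and Cyp1a2, and nearly all genes in AMs.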
